A study of Saccharomyces cerevisiae with 6 samples.

Results

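Transcript changes after shutting off NAR1 were set against those after loss of the mitochondrial genome (mtDNA), both at 27 h in budding yeast (Saccharomyces cerevisiae). All nuclear reading frames with a ratio in both comparisons were used, which gave 6192 of the 6205 on the array, and a reading frame counted as changed at a ratio of at least 1.5-fold in either direction. In the NAR1 experiment, strain UCC3970 cells moved from 50 to 2 nM estradiol, which repressed NAR1, were compared with cells of the same strain kept at 50 nM. In the mtDNA experiment, wild-type (WT) cells of strain UCC1899 were exposed for 6 h to ethidium bromide at 30 µg/ml, a dye binding DNA that empties mitochondria of their genome, and at 27 h were compared with WT cells that kept mtDNA. All cultures grew in rich glucose medium (YEPD) and were kept dilute, and RNA of each treated culture was hybridised with control RNA on 2-colour arrays. By the labels, the authors averaged 6 arrays into each comparison, with 3 biological replicates for each orientation of the dyes. Cells homozygous for ATP1-111, an allele of the ATP synthase alpha subunit gene, in strain UCC3980, were treated like the WT and measured at 27 h (average over 5 arrays), and WT cells were also measured at 3, 11 and 19 h. These columns serve below as further readouts.

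Iron-sulfur clusters are cofactors built first in mitochondria and then, through a cytosolic assembly machinery, inserted into enzymes of the cytosol and nucleus. Nar1 is an essential protein of that cytosolic machinery and itself carries clusters. The transcription factors Aft1 and Aft2 switch on the iron regulon, the genes that take up and mobilise iron, and are known in yeast to be held in check by products of the mitochondrial part of the pathway. Loss of mtDNA removes the respiratory chain and lowers the membrane potential on which protein import into mitochondria depends.

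NAR1 mRNA had a ratio of 0.031 once estradiol was lowered, against 2.25 in WT cells that had lost mtDNA, and of 0.979 in ATP1-111 cells. It was lower after NAR1 repression than after mtDNA loss (log2 difference -6.15, SE 0.14, adjusted p = 0.000144, by the limma test described below). Transcripts of mtDNA itself were not analysed here, so its loss was not checked on its own products. The promoter construct that made NAR1 depend on estradiol is not given in the sources used here. Genes under the galactose activator Gal4 moved with the change of estradiol. GAL7, GAL1, GAL2 and GAL10 stood at log2 ratios of -6.16, -5.88, -5.72 and -5.21 after NAR1 repression, against -0.49, 0.18, 0.62 and -0.12 after mtDNA loss. The effect of losing NAR1 and that of lowering estradiol cannot be told apart in this design, and this holds for every NAR1 value below. Likewise, an effect of ethidium bromide itself cannot be told apart from that of losing mtDNA, which holds for every WT and ATP1-111 value.

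Since each condition came as 1 averaged ratio per gene, no value has a replicate error of its own. Across the 13 genes spotted in duplicate, the SD of a single spot was 0.24 on the log2 scale in both columns. Blank (3XSSC) spots had ratios of 0.739 to 2.20 in the NAR1 column, 1 of 9 past 1.5-fold, and 0.795 to 5.10 in the WT column, 2 of 10 past it. Spots of non-yeast genes passed it in 6 of 13 cases in the NAR1 column and 4 of 14 in the WT column. They leaned low in both, with a median ratio of 0.679 (0.473 to 1.5) in the NAR1 column and 0.746 (0.557 to 1.051) in the WT column. Spot brightness was not used here, so a weak spot cannot be told from a bright one. The spread of all genes was alike in both, with a median absolute deviation of 0.27 after NAR1 repression and 0.28 after mtDNA loss, and a median log2 ratio of 0.03 and -0.06.

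After NAR1 repression 597 genes were at least 1.5-fold higher (9.64% of all) and 621 at least 1.5-fold lower (10%). After mtDNA loss 685 were higher (11.1%) and 645 lower (10.4%). The counts of list members past 1.5-fold given below are to be read beside these shares. Of the 436 genes past the threshold in both, 312 had changed in the same direction, 164 higher and 148 lower. The other 124 had changed in opposite directions, 51 of them higher after NAR1 repression and lower after mtDNA loss, and 73 the other way round. A change in NAR1-repressed cells alone was seen for 782 genes (382 higher and 400 lower), and a change after mtDNA loss alone for 894 (448 higher and 446 lower). The remaining 4080 genes (65.9%) passed in neither. The genes higher in both made up 27.5% of those higher after NAR1 repression and 23.9% of those higher after mtDNA loss. The genes lower in both made up 23.8% and 22.9% of the lower genes. The 51 made up 8.54% of the genes higher after NAR1 repression, where 10.4% of all genes were lower after mtDNA loss. The 73 made up 11.8% of the genes lower after NAR1 repression, where 11.1% of all genes were higher after mtDNA loss. The sizes of the opposite-direction classes thus lay near the shares of all genes. Across all genes Pearson's r between the columns was 0.19 and Spearman's rho 0.25 (n = 6192 genes, which are not independent replicates). Both columns come from the same array design, with separate strains and control cultures.

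**Figure D1:**
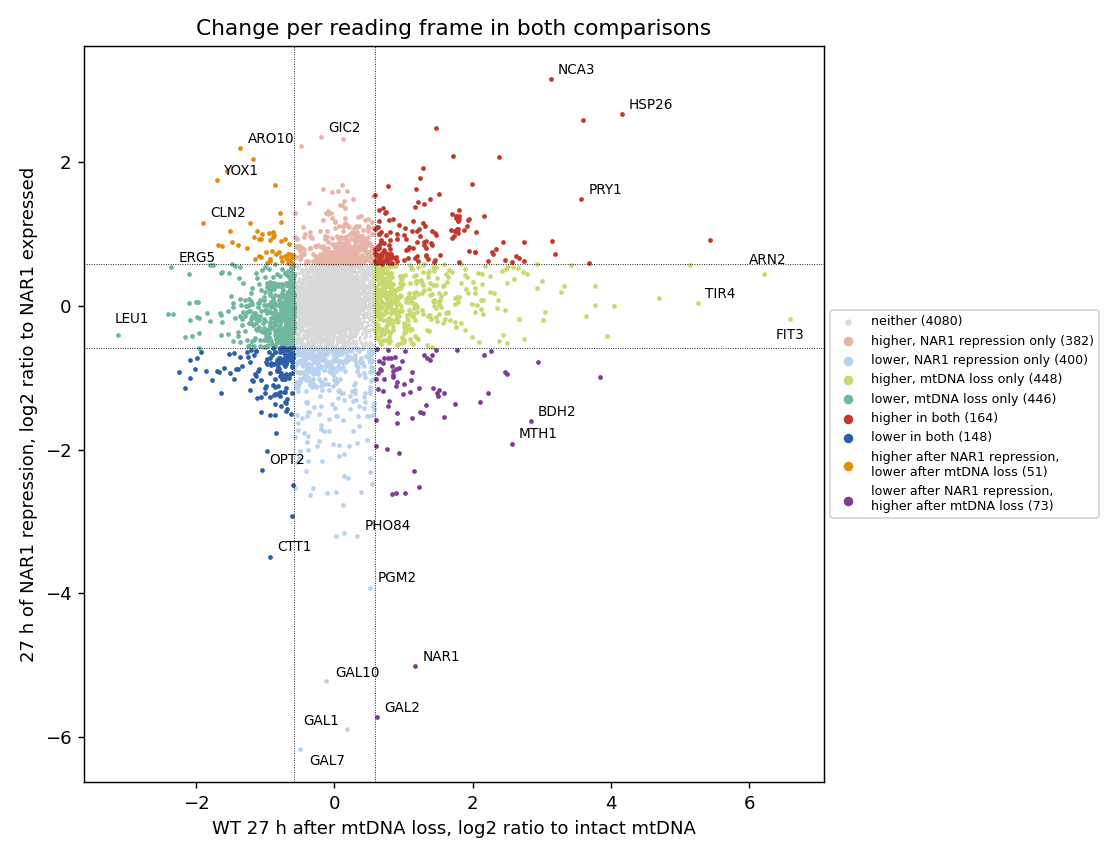
Log2 ratio of each reading frame after NAR1 repression (vertical) against that in WT cells after mtDNA loss (horizontal), 6192 points coloured by class with the class size in the key, and dotted lines at 1.5-fold. The most extreme points lie along the axes rather than on a diagonal, with FIT3 and ARN2 far to the right near 0 on the vertical axis and GAL7, GAL1 and GAL10 far below near 0 on the horizontal axis.

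The difference between the comparisons was tested with limma, with all 6 columns of the series in a single fit. Spread could be taken only from how the 4 WT columns scattered around their linear time trend (2 residual degrees of freedom), and the NAR1 column was assumed to vary in the same way. Values are NAR1 repression minus the fitted WT level at 27 h, on the log2 scale, with their standard error (SE). The scatter around the line includes any bend in the WT time course, not only measurement error. A gene with an uneven course can thus fall short of the threshold despite a large difference. PHO89 and HSP26, whose WT courses left a straight line, had SEs of 1.00 and 0.99. Of 6151 genes with values in all columns, 856 were higher after NAR1 repression (13.9%) and 744 lower (12.1%) at an adjusted p under 0.05. The counts lean on the WT columns, since without the 19 h column they were 220 and 314, without 11 h 536 and 579, and without 27 h 526 and 538. With columns scaled to equal spread they were 65 and 172, which also turned the balance of higher and lower genes. Ordinary least squares without moderation gave 0 and 0, with 1029 and 699 at an unadjusted p under 0.05. Among genes past 1.5-fold in NAR1-repressed cells alone, 213 of 382 higher and 229 of 400 lower ones passed this test of the difference. Among those past it after mtDNA loss alone, 273 of 448 higher and 253 of 444 lower ones did. A gene placed in one comparison only is therefore not always shown to differ between them.

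Genes higher in both comparisons had median log2 ratios of 0.88 after NAR1 repression and 1.16 after mtDNA loss, and 109 of the 164 were further from 1 after mtDNA loss. NCA3, a secreted SUN family protein, reached ratios of 8.85 and 8.77 and was nearly equal in both (log2 difference 0.02, SE 0.14). HSP26, a small heat shock protein, had ratios of 6.32 in NAR1-repressed and 17.8 in mtDNA-less cells, a difference short of the threshold (adjusted p = 0.136, limma). The unnamed frame YOR338W stood at 5.99 and 12.1, and MIG2, a repressor of glucose-repressed genes, at 4.17 and 5.20. TYE7, an activator of glycolytic genes, was higher after NAR1 repression (3.78 against 2.44, adjusted p = 0.0282). PRY1, a secreted sterol-binding protein, was lower there (2.80 against 11.9, adjusted p = 0.0141).

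YPS3, an aspartic protease of the cell surface, had ratios of 4.23 and 3.28, and PRM5, a target of the cell wall integrity pathway, 2.94 and 2.86. KTR2, a mannosyltransferase, stood at 5.53 after NAR1 repression against 2.76 after mtDNA loss and was higher in the test (log2 difference 1.25, SE 0.30, adjusted p = 0.0382). In the list of cell wall integrity genes 9 of 15 were at least 1.5-fold higher after NAR1 repression and 10 after mtDNA loss, 7 of them in both. The median log2 ratio of the list was 0.66 and 0.78. These 7 were KTR2, PRM5, PST1, GSC2, SLT2, CRH1 and HSP150, where SLT2 encodes the kinase of the pathway (1.19 and 0.78) and GSC2 a glucan synthase subunit (0.87 and 1.39). CWP1, a wall mannoprotein, was low in both, at -0.88 and -2.02. In the test of the difference 2 list members, KTR2 and SED1, were higher after NAR1 repression and 2, CHS1 and RLM1, lower (1 and 1 without the WT 11 h column, 4 and 2 without 3 h). These counts are near the 13.9% and 12.1% of all genes.

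The membrane protein gene YRO2 had ratios of 3.22 after NAR1 repression and 3.96 after mtDNA loss. PHM8, a nucleotide phosphatase, stood at 2.79 and 2.61, and its neighbour KRE29, a subunit of the Smc5/6 complex, at 2.67 and 2.46. None of the 3 passed the test of the difference. The Ty1 retrotransposon frames YMR045C, YML045W and YAR009C lay between 2.38 and 2.53 after NAR1 repression and between 3.25 and 3.49 after mtDNA loss. Ty1 copies are nearly identical, so these spots may read the same transcripts. Of the 155 genes higher in both that had a measured neighbour in gene order, 30 (19.4%) had a neighbour in the same class, compared with 4.91% of all genes with a measured neighbour, and several of these pairs joined neighbouring Ty frames. Such shares were also above that of all genes in the other classes, for example 30.0% against 13.1% for genes higher after mtDNA loss alone and 23.8% against 12.0% for genes higher after NAR1 repression alone, and least so for genes lower in both (6.02% against 4.41%).

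Genes lower in both had median log2 ratios of -0.87 after NAR1 repression and -0.82 after mtDNA loss. GDH1, the main glutamate dehydrogenase for ammonium assimilation, stood at 0.432 and 0.321, and HEK2, an RNA-binding protein, at 0.443 and 0.431. MET6, methionine synthase, had ratios of 0.453 and 0.223, and SDH1, the flavoprotein of succinate dehydrogenase, 0.490 and 0.293. The differences of these 4 genes did not pass the test. HEM15, ferrochelatase, which places iron into haem, was less reduced after NAR1 repression (0.497 against 0.234, log2 difference 1.10, SE 0.17, adjusted p = 0.0128). OPT2, an oligopeptide transporter, was further reduced there (0.206 against 0.483, adjusted p = 0.0488). The enolase-related genes ERR1, ERR2 and ERR3, near-copies of each other, lay between 0.413 and 0.452 after NAR1 repression and between 0.461 and 0.498 after mtDNA loss. The class also held EHT1 (0.492 and 0.364), MDG1 (0.489 and 0.477) and the unnamed frames YAR073W, YDR133C, YGR115C and YDL096C.

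The cytosolic ribosomal protein genes formed a large part of this class, with 35 of its 148 genes. Of 132 measured ribosomal protein genes, 54 were at least 1.5-fold lower after NAR1 repression and 79 after mtDNA loss, with medians of -0.51 and -0.63. RPL18B stood at -2.02 and -0.98 and RPL21B at -0.63 and -1.13. Paralogues of ribosomal proteins are close in sequence, so their spots may share signal. In the test 10 of 131 were higher after NAR1 repression and 0 lower, where 13.9% and 12.1% of all genes were, so the list did not hold more such genes than the rest. The count was 1 without the WT 19 h column or with scaled columns, and 17 higher and 5 lower without the 3 h column. Ribosome biogenesis genes, which code for assembly factors, lay on the other side of 0, with 15 of 37 at least 1.5-fold higher after NAR1 repression and 6 after mtDNA loss, and medians of 0.39 and 0.25. RPF1, which acts in large subunit assembly, was among the 3 higher in both, at 1.03 and 0.81. In the test 7 of the 37 were higher and 3 lower (0 and 0 without the WT 19 h column, 4 and 0 without 11 h, 5 and 0 without 27 h). These counts lay near the 13.9% and 12.1% of all genes. ERB1, SOF1 and IMP3 were higher after NAR1 repression in the test, at 1.01, 0.99 and 0.97 against 0.28, 0.25 and 0.05. Of 19 glycolysis and fermentation genes, 13 were at least 1.5-fold lower after NAR1 repression and 7 after mtDNA loss, 5 in both, with medians of -0.91 and -0.53. ADH1, the fermentative alcohol dehydrogenase, was lower after NAR1 repression, at -1.72 against -0.53, while PGK1 stood at -1.52 and -0.93 without passing.

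Among the 51 genes higher after NAR1 repression and lower after mtDNA loss were cell cycle genes. CLN2, a G1 cyclin, had a ratio of 2.23 after NAR1 repression, against 0.268 after mtDNA loss (log2 difference 3.11, SE 0.15, adjusted p = 0.0016). CLB2, a mitotic cyclin, had 2.06 against 0.351 (2.63, SE 0.17, adjusted p = 0.00283). YOX1, a homeobox repressor of genes of the M/G1 boundary, had 3.35 against 0.308, and SVS1, a cell wall protein, 4.10 against 0.443. The class was defined by the same values, so 50 of the 51 genes passing the test of the difference is not further evidence.

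Of 19 G1/S genes, 6 were at least 1.5-fold higher and 0 lower after NAR1 repression, whereas 0 were higher and 11 lower after mtDNA loss, with medians of 0.43 and -0.69. In the test 15 of the 19 were higher after NAR1 repression and 0 lower (6 with columns scaled to equal spread). MCD1, a cohesin subunit, stood at 0.47 against -1.63, CLN1 at 0.88 against -1.48, CLB6, an S phase cyclin, at 0.56 against -1.44, and PCL2 at 1.43 against -0.37. Of 15 G2/M genes, 7 were higher and 0 lower after NAR1 repression, and 0 higher and 7 lower after mtDNA loss, with medians of 0.58 and -0.58. Here 13 of 15 were higher after NAR1 repression in the test (8 without the WT 19 h column and 3 with scaled columns). CLB1 stood at 0.58 against -1.48, the sirtuin gene HST3 at 0.59 against -0.98 and NDD1, an activator of this gene group, at 0.84 against -0.25. RNR1, the large subunit of ribonucleotide reductase, stood at 0.92 against -0.93. The list of daughter-cell and M/G1 genes did not share this pattern, with 1 of 14 higher and 2 lower after NAR1 repression, against 3 higher and 1 lower after mtDNA loss, and medians of -0.03 and 0.29. In the test 1 of the 14 was higher after NAR1 repression and 4 lower (0 and 1 without the WT 19 h column, 0 and 2 without 27 h, 2 and 4 without 3 h). Over all genes 13.9% were higher and 12.1% lower.

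Iron-sulfur and iron-sensing genes made up another part of the 51. DRE2, an iron-sulfur protein that passes electrons to the cytosolic assembly machinery upstream of Nar1, had a ratio of 2.21 after NAR1 repression, against 0.428 after mtDNA loss (log2 difference 2.71, SE 0.38, adjusted p = 0.0102). RLI1, an iron-sulfur ATPase that recycles ribosomes, had 1.94 against 0.446 (2.27, SE 0.22, adjusted p = 0.0053). GRX4, a glutaredoxin through which iron status reaches Aft1, had 2.05 against 0.460 (2.31, SE 0.22, adjusted p = 0.00494). CCC1, which moves iron into the vacuole, stood at log2 0.69 against -1.09, and SMF1, a manganese transporter, at 0.90 against -0.77, both higher in the test. The remaining named genes of the class were CSI2 (3.65 against 0.342), ARO10, a decarboxylase of aromatic amino acid breakdown (4.57 against 0.389), and PDR12, an exporter of weak acids (2.00 against 0.484). Both copies of the metallothionein gene, CUP1-1 and CUP1-2, whose spots cannot be told apart, stood near log2 1.02 and 0.96 against -0.89 each.

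The opposite group of 73 genes, lower after NAR1 repression and higher after mtDNA loss, held glucose and carbon genes. MTH1, a co-repressor of hexose transporter genes, had a ratio of 0.265 after NAR1 repression, against 5.93 after mtDNA loss (log2 difference -5.18, SE 0.73, adjusted p = 0.0105). HXT7, a high-affinity glucose transporter nearly identical to HXT6, had 0.174 against 2.34 (-3.88, SE 0.21, adjusted p = 0.00198), and HXT6 itself stood at log2 -2.60 against 1.03. NRG2, a repressor in glucose repression, had 0.418 against 2.83, and BDH2, a dehydrogenase gene, 0.329 against 7.16. Over the 14 genes of the hexose transporter list, which also holds MIG1, MIG2 and SUC2, 5 were at least 1.5-fold lower and 2 higher after NAR1 repression, whereas 0 were lower and 8 higher after mtDNA loss. HXT2 and HXT5 stood at -0.20 and -0.51 against 3.02 and 2.10, and both were lower after NAR1 repression in the test. HXT3, a low-affinity transporter, was past the threshold in both, at 0.64 against 2.47.

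The other leading genes of this group were VHR1, the activator of biotin genes (0.387 against 3.34), CMK2, a calmodulin-dependent kinase (0.341 against 3.01), PDR15, a multidrug transporter (0.397 against 4.29), ATG41 (0.359 against 2.35), YJL213W (0.384 against 2.50) and YLR177W (0.357 against 2.44). Of the 73 genes 71 passed the test, in the direction that the choice of the class fixes. The copper-transporting ATPase gene CCC2, an iron regulon member, was found here as well, at log2 -1.14 against 1.22. MTH1 and GAL2, 2 members of the Gal4 list, also fell in this group.

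**Figure D2:**
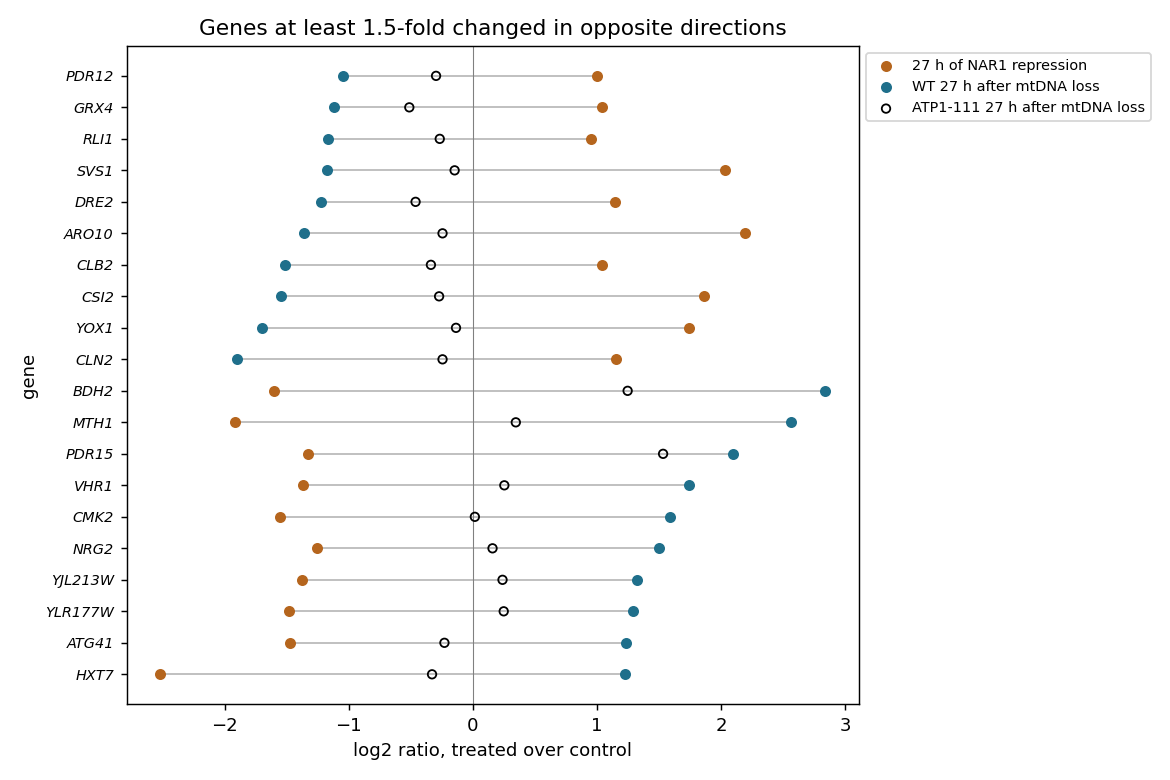
Log2 ratios of the 10 leading genes of each opposite-direction class after NAR1 repression and in WT cells after mtDNA loss (filled points) and in ATP1-111 cells after mtDNA loss (open points), 1 row per gene. CLN2, YOX1 and the iron-sulfur genes DRE2 and RLI1 lie to the right after NAR1 repression and to the left after mtDNA loss, while in the lower rows MTH1, BDH2 and HXT7 lie the other way round.

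After NAR1 repression alone, the highest genes were GIC2, an effector of the polarity GTPase Cdc42 (ratio 5.06 against 0.875), PLB3, a phospholipase B (4.99 against 1.09), and PRY2, a paralogue of PRY1 (4.65 against 0.719). Passing the test in this direction is no further evidence for the leading genes here, which were chosen by the same values. They included ISU2, a scaffold protein on which mitochondria build iron-sulfur clusters, at 3.20 against 1.08 (log2 difference 1.75, SE 0.35, adjusted p = 0.025). SED1, a wall glycoprotein (3.07 against 0.894), UTP9, a factor of small subunit assembly (3.03 against 1.14), RRN3, an RNA polymerase I initiation factor (2.88 against 1.48), POP3, an RNase P subunit (2.79 against 1.21), AQR1, an exporter (3.01 against 0.977), and the unnamed YDR222W (3.02 against 1.04) were the others. RRN3 lay just short of the threshold after mtDNA loss.

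Low after NAR1 repression were the genes of the Gal4 list, of which 11 of 12 were at least 1.5-fold lower, with a median of -2.13. After mtDNA loss 0 of the 12 were lower and 3 higher (MTH1, GAL2 and GAL4), with a median of 0.44. In the test 11 of 12 were lower after NAR1 repression, where 12.1% of all genes were. The count was 11 also when any WT column was left out, and 8 with scaled columns. PGM2, phosphoglucomutase, stood at -3.92 against 0.52, GAL3, the galactose sensor, at -2.31 against 0.51, GCY1 at -1.94 against 0.07, and GAL80, the Gal4 inhibitor, at -1.53 against 0.03. The exception was GAL4 itself, at 0.51 and 0.63. REE1, which lies outside the list, had a ratio of 0.161 against 0.781. The leading genes lower after NAR1 repression alone were chosen by the values tested, so their passing is no further evidence. They were GAL7, GAL1, GAL10, PGM2 and REE1 and, described below, PHO84, GSY1, GSY2, CIN5 and ADH6.

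Phosphate genes under Pho4 were a further low group. Of 15, 13 were at least 1.5-fold lower and 0 higher after NAR1 repression, against 4 lower and 2 higher after mtDNA loss, with medians of -1.24 and -0.20. PHO84, the high-affinity phosphate transporter, had a ratio of 0.109 against 1.25 (log2 difference -3.42, SE 0.19, adjusted p = 0.00205). The polyphosphate synthesis gene VTC3 stood at -2.50 against -0.59, and the acid phosphatase genes PHO11 and PHO12, close copies, at -2.30 and -2.16 against -0.40 and -0.17. In the test 9 of 15 were lower after NAR1 repression and 0 higher (4 lower without the WT 19 h column, 5 without 27 h and 3 with scaled columns). Over all genes 12.1% were lower and 13.9% higher. PHO89, a sodium-phosphate transporter, was at -0.78 against 2.95 without passing.

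GSY1 and GSY2, the glycogen synthases, had ratios of 0.112 and 0.164 against 1.11 and 0.931, and both were lower in the test (adjusted p = 0.0281 and 0.0325). Of 22 environmental stress response genes, 16 were at least 1.5-fold lower and 2 higher after NAR1 repression, against 2 lower and 7 higher after mtDNA loss, with medians of -0.93 and 0.40. CTT1, the cytosolic catalase, stood at -3.49 against -0.92, MSC1 and GPH1, glycogen phosphorylase, at -2.59 each against 0.02 and 0.39, and TPS2, a trehalose synthesis gene, at -1.91 against 0.33. HSP26 and HSP12 were the 2 higher members, at 2.66 and 1.04 against 4.16 and 1.12. In the test 17 of the 22 were lower and 0 higher (10 lower without the WT 19 h column, and 3 with scaled columns), where 12.1% and 13.9% of all genes were. The stress regulator CIN5 had a ratio of 0.147 against 1.09, and ADH6, an NADPH-dependent alcohol dehydrogenase, 0.109 against 1.02.

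Of the 10 leading genes higher after mtDNA loss alone, 4 belonged to the iron regulon and 5 to the anaerobic and sterol uptake list. Leading genes were chosen by the same values, so passing the test in this direction is no further evidence for them. FIT3, a wall mannoprotein that retains siderophores, had a ratio of 0.876 after NAR1 repression, against 96.8 after mtDNA loss (log2 difference -7.11, SE 0.69, adjusted p = 0.00528). ARN2 and SIT1, which encode siderophore transporters, had 1.35 and 1.00 against 74.1 and 16.6, and FIT1 1.08 against 26.1. Of the 29 measured list members, 5 were at least 1.5-fold higher and 4 lower after NAR1 repression, against 25 higher and 0 lower after mtDNA loss, with medians of 0.14 and 1.78. In the test 24 of 28 were lower after NAR1 repression and 1, ISU2, higher (12 lower with scaled columns). Over all genes 12.1% were lower and 13.9% higher in the test. At 1.5-fold the shares of all genes were 9.64% higher and 10% lower after NAR1 repression, and 11.1% and 10.4% after mtDNA loss. Of the 5 members past the threshold after NAR1 repression, ISU2 stood at 1.68 against 0.12, FRE6 at 0.95 against 1.70, ARN1 at 0.92 against 5.43, FET3, the multicopper ferroxidase, at 0.90 against 3.14, and ISU1 at 0.75 against 2.03. The 4 on the low side were CCC2, ENB1 with a ratio of 0.501 against 14.4, MRS4, a mitochondrial iron carrier, at -0.76 against 0.97, and PCL5 at -0.61 against 1.78. AFT1 itself stood at 0.17 against 0.80 and was lower after NAR1 repression in the test.

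Anaerobic and sterol uptake genes showed the same split. Of 20, 2 were at least 1.5-fold higher and 3 lower after NAR1 repression, against 11 higher and 2 lower after mtDNA loss, with medians of -0.13 and 0.70. TIR4, a wall mannoprotein of anaerobic cells, had a ratio of 1.02 against 38.2 (log2 difference -5.01, SE 0.86, adjusted p = 0.0168). The sterol transporter gene AUS1 had 0.746 against 15.4, HES1, an oxysterol-binding protein, 1.01 against 13.6, and TIR1 and DAN1 0.902 and 1.21 against 12.5 and 13.6. In the test 13 of 19 were lower and 1 higher (7 lower without the WT 19 h or 27 h column, and 5 with scaled columns). Of all genes 12.1% were lower and 13.9% higher. PBI1 (1.48 against 35.3) did not pass. HEM13, an oxygen-dependent haem synthesis enzyme, lay apart, at -1.40 after NAR1 repression against -0.19.

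Genes lower after mtDNA loss alone included iron-sulfur enzymes. The leading genes of this class, here and below, were also chosen by the values tested, so their passing is no further evidence. LEU1, isopropylmalate isomerase of leucine synthesis and a cytosolic iron-sulfur protein, had a ratio of 0.753 after NAR1 repression, against 0.114 after mtDNA loss (log2 difference 3.35, SE 0.65, adjusted p = 0.0232). GLT1, glutamate synthase, had 0.874 against 0.234. Of 20 genes for cytosolic and nuclear iron-sulfur proteins and their glutaredoxins, 3 (GRX4, RLI1 and the primase subunit PRI2) were higher and 0 lower after NAR1 repression, against 0 higher and 8 lower after mtDNA loss. Their medians were 0.13 and -0.45. In the test 12 of 20 were higher after NAR1 repression (5 without the WT 19 h column, 2 with scaled columns), where 13.9% of all genes were. Of 9 genes for mitochondrial iron-sulfur proteins, 3 were lower after NAR1 repression and 7 after mtDNA loss. ILV3, of branched-chain amino acid synthesis, stood at 0.05 against -1.98, LYS4 at -0.10 against -1.16 and RIP1, the Rieske protein, at -0.10 against -1.65. ACO1, aconitase, was among the 3, at -1.01 against -0.46, with BIO2, biotin synthase (-0.91 and -1.70), and SDH2 (-0.71 and -1.36). These 3 did not pass the test of the difference.

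Of the 10 measured cytosolic assembly genes, NAR1, DRE2 and LTO1 passed 1.5-fold after NAR1 repression, and NAR1 and DRE2 after mtDNA loss. Beside NAR1 and DRE2, LTO1, an adaptor for RLI1 maturation, stood at 0.89 against 0.19, TAH18, the reductase partner of DRE2, at 0.58 against 0.51, CIA2 at 0.50 against 0.22, and the scaffold genes NBP35 and CFD1 at 0.42 and 0.26 against 0.18 and 0.19. MET18 stood at 0.18 against -0.34 and was higher after NAR1 repression in the test, while CIA1 (-0.01 and -0.10) and YAE1 (-0.13 and -0.20) lay near 0. Among 21 mitochondrial assembly genes, 4 were higher and 2 lower after NAR1 repression, against 2 higher and 4 lower after mtDNA loss. The shares of all genes were 9.64% and 10% after NAR1 repression, and 11.1% and 10.4% after mtDNA loss. In the test 5 of the 21 were higher after NAR1 repression and 3 lower (2 and 1 with scaled columns), where 13.9% and 12.1% of all genes were. ISU1 and ISU2, given above with the iron regulon, are both in this list. ISA1, a late-acting assembly factor, stood at 1.46 against 0.13 without passing, and NFU1, another late factor, at 0.65 against -0.93. YFH1, frataxin, and GRX5, a glutaredoxin of this pathway, stood at -0.09 and -0.07 against -1.32 and -1.24, and both were higher after NAR1 repression in the test.

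Respiratory genes differed likewise. Of 37 nuclear genes for the respiratory chain and ATP synthase, 4 were at least 1.5-fold lower after NAR1 repression, against 22 after mtDNA loss, and 0 were higher in either, with medians of -0.12 and -0.79. CYT1, cytochrome c1, had a ratio of 0.923 against 0.199 (log2 difference 2.27, SE 0.23, adjusted p = 0.00562), and COR1 and COX4 stood at -0.17 and -0.38 against -1.95 each. In the test 14 were higher after NAR1 repression and 1, CYC7, lower (6 higher without the WT 27 h column, 7 without 19 h, 23 without 3 h and 2 with scaled columns). Of all genes 13.9% were higher and 12.1% lower. TCA cycle genes followed another course, with 7 of 14 lower after NAR1 repression and 4 lower and 3 higher after mtDNA loss. MDH1, malate dehydrogenase, and FUM1, fumarase, stood at -1.53 and -1.03 against 0.04 and 0.06, while IDH1, a subunit of isocitrate dehydrogenase, was at 0.48 against 2.43. All 3 were lower after NAR1 repression in the test. CIT2, the peroxisomal citrate synthase that reports retrograde signalling, stood at 0.30 against 2.14 and was lower there as well.

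Of 24 ergosterol synthesis genes, 6 were lower and 1 higher after NAR1 repression, against 13 lower and 2 higher after mtDNA loss. ERG5, a haem-containing sterol desaturase, had a ratio of 1.45 against 0.195 (log2 difference 3.04, SE 0.21, adjusted p = 0.00329), and ERG11 stood at -0.11 against -1.85. ERG6 and ERG3 went the other way, at -1.31 and -1.01 against 0.14 and 0.73, and were lower after NAR1 repression in the test. BAT1, the mitochondrial branched-chain aminotransferase, had 0.739 against 0.224. Of 13 genes of leucine, isoleucine and valine synthesis, 0 passed 1.5-fold after NAR1 repression in either direction, against 6 lower and 1 higher after mtDNA loss. In arginine synthesis 1 of 9 was higher and 3 lower after NAR1 repression, against 6 higher and 0 lower after mtDNA loss. ARG4, argininosuccinate lyase, stood at -2.62 against 0.83 and ARG1 at -0.40 against 2.44. In the test 7 of the 9 were lower, where 12.1% of all genes were. Of 12 purine synthesis genes, 2 were lower and 1 higher after NAR1 repression, against 10 lower and 1 higher after mtDNA loss. The lowest after mtDNA loss alone also included HEM3 (1.36 against 0.232, not tested for want of values in other columns), MTC7 (0.926 against 0.188), MYG1 (1.02 against 0.233), ELO1, a fatty acid elongase (0.746 against 0.239), and YBR089W (1.04 against 0.249).

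**Figure D3:**
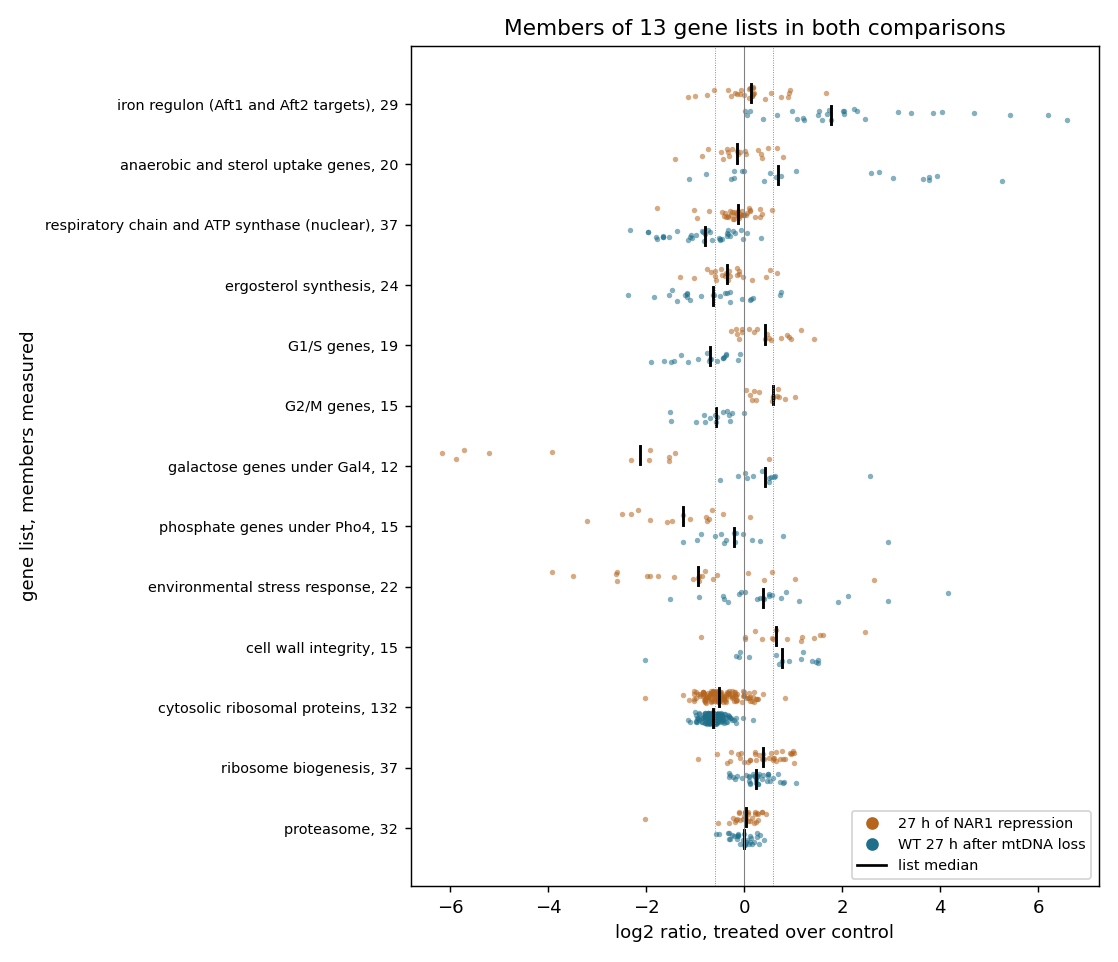
Log2 ratios of the measured members of 13 gene lists (number beside each name) after NAR1 repression (upper row of each list) and in WT cells after mtDNA loss (lower row), with black bars at list medians and dotted lines at 1.5-fold. All 15 G2/M genes lie right of 0 after NAR1 repression and left of it after mtDNA loss, the Gal4 list lies far left after NAR1 repression, with a median of -2.13, and the iron regulon far right after mtDNA loss, with a median of 1.78.

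Of 32 proteasome genes, 0 were higher and 1 lower after NAR1 repression and 0 passed in either direction after mtDNA loss. The single gene was RPT1, an ATPase subunit, at -2.02 against -0.50. Among 17 targets of the drug resistance factors Pdr1 and Pdr3, 4 were higher and 3 lower after NAR1 repression, against 9 higher and 2 lower after mtDNA loss, and PDR3, ICT1 and SNQ2 were higher in both. PDR5, the main drug exporter, stood at -0.49 against 2.39. Haploid and mating genes, a check of cell type, had 1 of 19 higher and 1 lower after NAR1 repression, against 8 higher and 0 lower after mtDNA loss, led by FUS1 at -0.18 against 1.59. The shares of all genes were 9.64% higher and 10% lower after NAR1 repression, and 11.1% and 10.4% after mtDNA loss.

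The ATP1-111 column, which took no part in defining the classes, gave a further readout of mtDNA loss with its own strain and controls. Its non-yeast control spots were uneven, with 8 of 12 past 1.5-fold. Over all genes it held few large changes, 1.98% at least 1.5-fold higher and 1.39% lower. Of the 164 genes higher in both comparisons, 39 were at least 1.5-fold higher in ATP1-111 cells, 1 was lower, and 129 lay above a ratio of 1. Of the 448 genes higher after mtDNA loss alone, 43 were higher, 10 lower and 334 above 1. Of the 382 genes higher after NAR1 repression alone, 2 were higher, 2 lower and 182 above 1. On the low side, 10 of the 148 genes lower in both were at least 1.5-fold lower in ATP1-111 cells, 0 were higher and 121 lay below 1. Of the 444 lower after mtDNA loss alone with a value, 18 were lower and 375 below 1. Of the 400 lower after NAR1 repression alone, 7 were lower and 211 below 1. In the opposite-direction classes, 43 of the 51 genes lower after WT mtDNA loss also lay below 1 in ATP1-111 cells, and 44 of the 73 higher ones lay above 1. Of the 51, 0 were at least 1.5-fold higher there and 4 lower, and of the 73, 11 were higher and 5 lower. The median log2 ratio in ATP1-111 cells was 0.23 for genes higher in both, 0.15 for those higher after mtDNA loss alone and -0.01 for those higher after NAR1 repression alone. Over all genes it was -0.02.

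**Figure D4:**
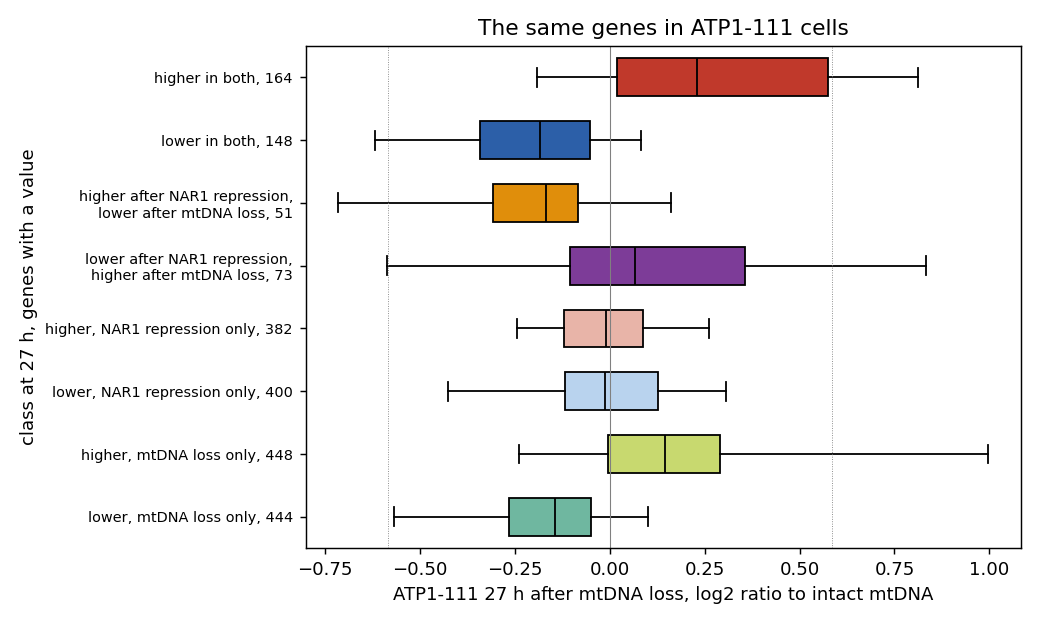
Log2 ratio in ATP1-111 cells 27 h after mtDNA loss for the genes of each class (number of genes with a value beside the name), with boxes over the middle of each distribution, a line at the median and whiskers to its 5th and 95th percentiles. The boxes of the 2 classes changed after NAR1 repression alone straddle 0, while genes higher in both have a median of 0.23 and genes lower in both a median of -0.18.

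The earlier WT columns gave the levels of these classes over time. Genes higher in both had medians of 0.19, 0.49, 0.76 and 1.16 at 3, 11, 19 and 27 h after mtDNA loss, and genes higher after mtDNA loss alone had 0.11, 0.35, 0.69 and 0.90. Genes lower in both had -0.08, -0.46, -0.72 and -0.82. Whether these WT time points share control RNA is not given in the sources used here, and the 27 h values defined the classes.

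The classes have a hard edge. OCA5 (1.54 after NAR1 repression and 1.502 after mtDNA loss) and LPX2 (1.5 and 1.62) were the genes higher in both that lay closest to the threshold. UBC11 (1.499 and 1.51) and SUT1 (1.72 and 1.499) lay just short of it.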

How the data were processed

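The authors deposited 1 ratio per array row and condition, treated over control cells on 2-colour arrays, as a linear ratio averaged over arrays, per the labels. Scanner settings, background correction, normalization and the kind of average are not given in the sources used here, and the number of arrays limits the precision. Of 6259 rows, 28 were control spots. The 13 genes with 2 spots were averaged on the log2 scale. Names came from a RefSeq gene table, which held 5692 of the 6192 reading frames used. Ratios were taken to log2 with no filter or pseudocount. NAR1 repression was compared with the fitted WT level at 27 h by limma 3.58.1 in R 4.3.3, with Benjamini-Hochberg adjustment over all genes, after a check on simulated data. The named genes were NAR1, the leading 15 or 10 of each class by the smaller change (for genes changed in one comparison, by the larger), up to 5 members of each list, and those nearest the threshold. Other list members were chosen after their values were seen. Members and lists were chosen with earlier results of these data known. Promoter sequences were not used here. Alternatives were the fold threshold, centring and scaling of columns, the time scale, unmoderated tests and leaving out each WT column.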

Additional observations from a re-analysis of the deposited data

How the results depend on the processing

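At a 2-fold threshold 46 genes were higher and 15 lower in both, 9 were higher after NAR1 repression and lower after mtDNA loss, and 23 the reverse. After NAR1 repression alone 80 were higher and 191 lower, and after mtDNA loss alone 249 and 151. With the other comparison held inside 1.2-fold, 213 were higher and 176 lower after NAR1 repression alone, and 238 and 241 after mtDNA loss alone. Centring or scaling the columns left every class count within 1.5 times its value. In the test of the difference, leaving out each WT column gave 220 to 950 genes higher and 314 to 890 lower. Scaled columns gave 65 and 172. Unmoderated least squares gave 0 and 0 (1029 and 699 at an unadjusted p under 0.05). Of 266 tested named genes, 172 passed in the main fit, and all 172 lost their call without moderation. With scaled columns 101 lost it, and 57 did without the WT 19 h column. In the settings run, 0 of these 266 named genes changed direction while called in the main fit or in the other setting. Other genes were not checked for this. Sign changes of uncalled genes were not counted, such as HEK2, at 0.10 in the main fit and -0.04 with time on a log2 scale. The causes were not tested. No paired analysis was possible because each condition was a single averaged column. The test has no spread between cultures of NAR1-repressed cells, and signal over background was not used here.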

Other observations

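Of 20 heat shock and chaperone genes, 2 were at least 1.5-fold higher and 3 lower after NAR1 repression, against 1 higher and 11 lower after mtDNA loss. BTN2, a v-SNARE binding protein induced by heat, stood at log2 -0.93 after NAR1 repression against -2.24 after mtDNA loss, whereas HSP30, a stress-induced membrane protein, stood at -1.14 against 1.43. Mitochondrial ribosomal protein genes stayed near 0, with 0 of 68 higher and 3 lower after NAR1 repression, against 1 higher and 0 lower after mtDNA loss, and medians of -0.19 and -0.01. RNR3, the damage-inducible large subunit of ribonucleotide reductase, stood at 0.46 after NAR1 repression against 1.71 after mtDNA loss, and RNR2, a small subunit, at -1.43 against 0.43. In sulfate assimilation and methionine synthesis 5 of 20 genes were higher and 5 lower after NAR1 repression, against 0 higher and 5 lower after mtDNA loss. Among amino acid permeases 5 of 20 were higher and 3 lower after NAR1 repression, against 8 higher and 2 lower after mtDNA loss. Over all genes 9.64% were at least 1.5-fold higher and 10% lower after NAR1 repression. After mtDNA loss the shares were 11.1% and 10.4%. The heat shock counts after NAR1 repression and the lower permease counts lay near these shares. Whether any list departed from the shares of all genes was not tested.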
